A study of Drosophila melanogaster with 4 samples.

Results

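Transcripts of the proteasome and of the COP9 signalosome were compared between *Drosophila melanogaster* embryos in which the microRNA mir-3 was expressed ectopically and wild-type embryos. The genes were taken by symbol, through the CG number of each array probe: every gene whose symbol starts with Prosalpha, Prosbeta, Rpn, Rpt or CSN, the last 3 followed by a digit. This gave 56 genes of the 25098 genes and transcripts on the array, 25 of them of the core particle, 23 of the regulatory particle and 8 of the signalosome. By name, 40 were counted as genes of the ordinary subunits, both *CSN1a* and *CSN1b* among them, and 16 as duplicate genes. In total 46 were measured, that is, at least 1 of their probes was well above background in at least 1 genotype on at least 3 of 4 arrays: 16, 23 and 7 genes of the 3 assemblies. The other 10, *Prosalpha3T*, *Prosalpha4T1*, *Prosalpha4T2*, *Prosalpha6T*, *Prosbeta2R1*, *Prosbeta4R1*, *Prosbeta4R2*, *Prosbeta5R1*, *Prosbeta5R2* and *CSN1a*, were well above background on 0 arrays in either genotype.

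The mir-3 ectopic embryos were homozygous for mir-3 ectopic expression in a w1118 background, and the wild-type embryos were w1118. Which promoter or driver gave the ectopic expression is not stated in the labels used here. Eggs of both genotypes were laid over 2 h at 25 °C and kept for another 6 h, so that whole embryos of 6 to 8 h were extracted. RNA was isolated separately for 3 biological replicates per genotype, and each mir-3 ectopic sample was hybridised against a wild-type sample on a 2-colour Agilent array, replicate 1 a second time with the dyes swapped. Cy3 marked the mir-3 ectopic RNA except on the dye swap, where it marked the wild-type RNA. Both arrays of replicate 1 lay on 1 slide, and replicates 2 and 3 on another.

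The proteasome degrades proteins tagged with ubiquitin. Its core particle is a barrel of outer α rings and inner β rings, and the β rings carry the protease sites. The regulatory particle caps the barrel: its base holds a ring of ATPases (Rpt) that unfold substrates, and its lid removes ubiquitin. The COP9 signalosome resembles the lid subunit by subunit and takes the ubiquitin-like protein NEDD8 off cullin ubiquitin ligases. In animals the subunits of a proteasome are commonly expressed together, and fly embryos begin with a maternal supply of both particles.

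Each of the 4 arrays held 45020 spots, controls included. Of the spots that were not controls, 57.6% to 64.7% were well above background for mir-3 ectopic RNA and 59.1% to 66.1% for wild-type RNA. No precision beyond that of 4 arrays can be had. Over the 46 measured genes Pearson's r between ratios was 0.962 to 0.973 among the 3 arrays of one dye orientation, and 0.718 to 0.777 between the dye swap and each of them. These are descriptions across genes, which are not independent replicates, and both arrays of replicate 1 share their RNA. The dye-swap array thus stood apart, and its values are given with the others. In whole embryos, fewer cells of a type and less RNA per cell cannot be told apart.

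Core particle transcripts and signalosome transcripts were mostly higher in mir-3 ectopic embryos than in wild-type embryos, and regulatory particle transcripts were mostly lower. Every ratio given is on the log2 scale, with mir-3 ectopic on top by the labelled dyes. The authors' deposited value table has the opposite sign. Every rise and fall given here therefore rests on the dye labels, and all would be reversed if the labels were exchanged. Whether the labels or the table give the true direction was not tested. By limma's test on 3 replicates, at an adjusted p under 0.05 over all genes, 21 of the 46 measured genes rose and 15 fell, while of the 14871 genes and transcripts tested 24.3% were higher and 24.4% lower. In the core particle 12 of 16 rose, 3 fell and 1 did not pass, and the median log2 ratio was 0.28. In the regulatory particle 3 of 23 rose, 12 fell and 8 did not pass, and the median was -0.15. In the signalosome 6 of 7 rose, 0 fell (0 also at an unadjusted p under 0.05) and 1 did not pass, and the median was 0.25. The median over all genes tested was -0.0018. On the dye-swap array alone the medians were 0.16 for the core particle, -0.23 for the regulatory particle and 0.18 for the signalosome. Replicates 2 and 3 were run in one dye orientation only.

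All 36 genes that passed had the same sign on all 4 arrays, the dye swap included, as had 39 of the 46 measured genes (84.8%). Over all genes tested, 6321 of the 7241 that passed had the same sign on all 4 arrays, as had 55.3% of those tested. A second limma fit, over 4 arrays and with a dye term, called 21 genes higher and 19 lower, where it called 26.8% of all genes tested higher and 27.5% lower. Those calls held the 36 genes and, in addition, *Rpn1*, *Rpn2*, *Rpn9* and *Rpn10* as lower. Each of these had its lowest ratio on the dye swap. *Rpn2* had 0.0023, 0.0076 and 0.096 in replicates 1, 2 and 3 and -0.39 on the dye swap. *Rpn1* had 0.068, -0.026 and -0.029 against -0.32, and *Rpn9* -0.10, -0.059 and 0.060 against -0.51. *Rpn10* had -0.14, -0.13 and -0.053 against -0.39. In that fit the spread comes from the 3 arrays of one dye orientation.

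**Figure D1:**
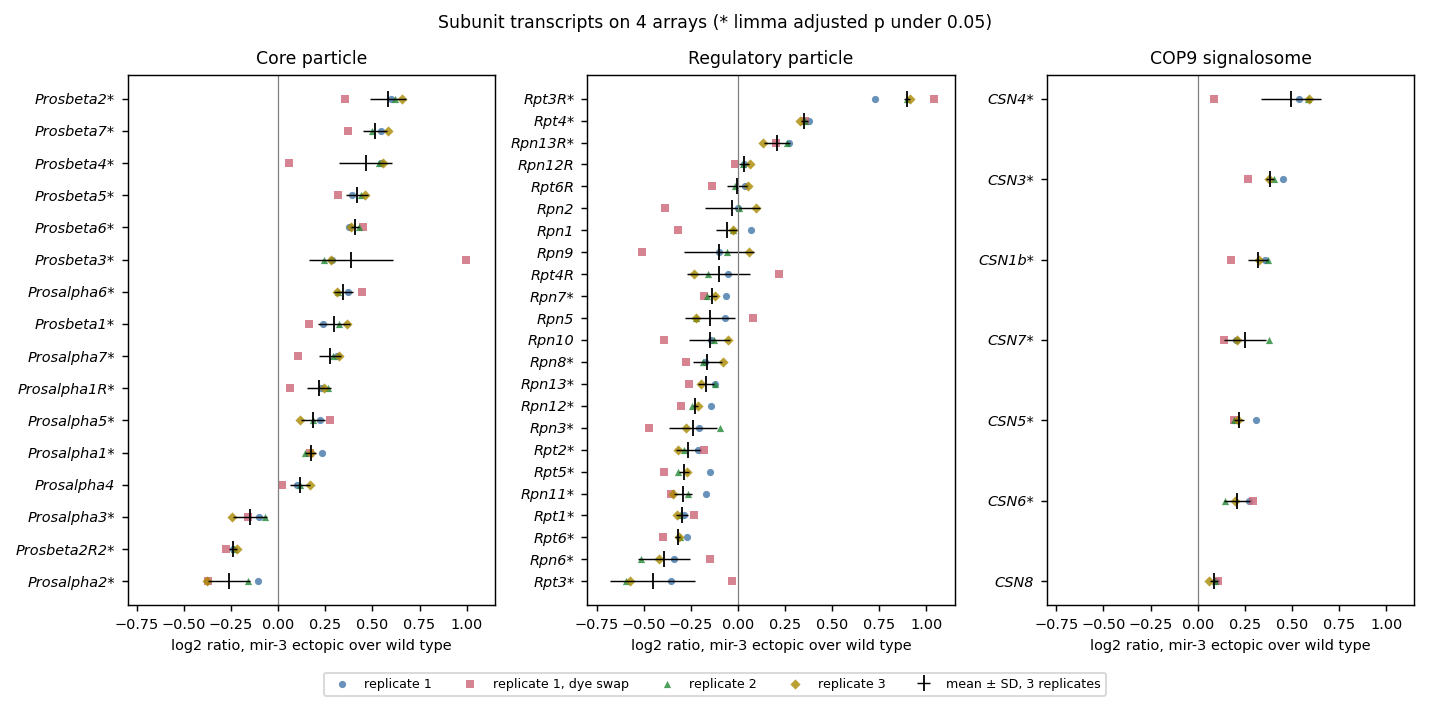
Log2 ratio of mir-3 ectopic over wild type (x axis) for each measured gene (y axis) of the core particle, the regulatory particle and the signalosome. Coloured points are the 4 arrays, black ticks with bars the mean ± SD of 3 replicates, and an asterisk marks genes that passed limma's test. Most core and signalosome genes lie right of 0 on all 4 arrays and most regulatory genes left of it, with *Rpt4* and *Rpt3R* to the right and *Prosalpha2* and *Prosalpha3* to the left.

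All 7 genes of the β ring rose, by log2 ratios of 0.30 to 0.58 with a median of 0.42. *Prosbeta2* (CG3329), which carries the trypsin-like site, had log2 signals in mir-3 ectopic embryos of 13.45 in replicate 1, 13.23 with its dyes swapped, 13.49 in replicate 2 and 13.24 in replicate 3, against 12.85, 12.88, 12.88 and 12.58 on the same arrays in wild-type embryos. On each array the mir-3 ectopic value lay above the wild-type value. Signals were not scaled between arrays, so only values of the same array are compared. Its log2 ratios were 0.60, 0.35, 0.62 and 0.66 in the same order, with a mean of 0.58 ± 0.10 (SD, n = 3), a 1.5-fold difference (adjusted p = 0.00013). Both of its probes passed, with log2 ratios of 0.29 and 0.88, so the sign rests on both and the size differs between them by 0.60, the largest gap among these genes.

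*Prosbeta7* (CG12000), a structural β subunit, had log2 ratios of 0.54 in replicate 1, 0.37 with its dyes swapped, 0.50 in replicate 2 and 0.58 in replicate 3, and a mean of 0.51 ± 0.063 (SD, n = 3, adjusted p = 0.00014). *Prosbeta6* (CG4097), another structural subunit, had 0.37, 0.45, 0.43 and 0.39 on the same arrays and a mean of 0.41 ± 0.022 (adjusted p = 0.00027). *Prosbeta5* (CG12323), which carries the chymotrypsin-like site, had 0.39, 0.32, 0.44 and 0.46 and a mean of 0.42 ± 0.057 (adjusted p = 0.00034). All of these ratios were positive, the lowest being the 0.32 of *Prosbeta5* on the dye swap.

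Of the other β genes, *Prosbeta1*, which carries the caspase-like site, rose by 0.30 ± 0.086 (adjusted p = 0.0024). *Prosbeta4* rose by 0.46 ± 0.14 (adjusted p = 0.00081), with 0.54 to 0.55 on the 3 arrays of one orientation and 0.056 on the dye swap. *Prosbeta3* rose by 0.39 ± 0.22 (adjusted p = 0.0064), with 0.24 to 0.29 on those arrays and 1.00 on the dye swap. The 3 subunits with protease sites and the 4 without thus rose alike in sign.

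The α ring, which gates the barrel, was split. *Prosalpha6* rose by 0.35 ± 0.052 (adjusted p = 0.00076), *Prosalpha7* by 0.27 ± 0.058 (0.0023), *Prosalpha5* by 0.18 ± 0.065 (0.014) and *Prosalpha1* by 0.17 ± 0.030 (0.013). *Prosalpha2* fell by 0.26 ± 0.11 (0.0064) and *Prosalpha3* by 0.15 ± 0.091 (0.042), both with a negative ratio on all 4 arrays. Of the probes of *Prosalpha3*, 1 passed at -0.23 and the other, at -0.068, did not (adjusted p = 0.027 and 0.25), and the gene did not pass without replicate 2 (adjusted p = 0.059) or without replicate 3 (0.25). *Prosalpha1* likewise did not pass without replicate 2 (0.054) or 3 (0.074), nor *Prosalpha5* without replicate 2 (0.069). *Prosalpha4* had a log2 ratio of 0.12 ± 0.055 and did not pass (adjusted p = 0.066), and its probes differed, at 0.0094 and 0.22. The ring's median was 0.17. The β ring's median exceeded it by 0.21, 0.30 and 0.29 in replicates 1, 2 and 3, and by 0.25 on the dye-swap array alone.

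Of the core duplicates, *Prosalpha1R* rose by 0.22 ± 0.064 (adjusted p = 0.0070). It is a near-identical copy of *Prosalpha1*, so probes may not separate the 2 genes and its value is uncertain. *Prosbeta2R2* fell by 0.24 ± 0.021 (adjusted p = 0.0030). It was dim, and its probe was well above background on 3 of 4 arrays in mir-3 ectopic embryos and on 4 of 4 in wild-type embryos. The size of its ratio depended on the processing: -0.70 with the processed signals of the scanner software and -0.355 with no background subtraction.

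In the base of the regulatory particle, 5 of the 6 ATPase genes fell and *Rpt4* rose, with a median log2 ratio of -0.29. *Rpt6* (CG1489) had log2 signals in mir-3 ectopic embryos of 14.28 in replicate 1, 14.13 with its dyes swapped, 14.30 in replicate 2 and 14.16 in replicate 3, against 14.55, 14.53, 14.61 and 14.48 in wild-type embryos. On each array the mir-3 ectopic value lay below the wild-type value. Its ratios were -0.27, -0.40, -0.31 and -0.32, with a mean of -0.32 ± 0.014 (SD, n = 3, adjusted p = 0.00079). *Rpt1* (CG1341) had -0.29, -0.23, -0.31 and -0.32 on the same arrays and a mean of -0.30 ± 0.032 (adjusted p = 0.0013).

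*Rpt4* (CG3455) went the other way on every array. Its log2 signals in mir-3 ectopic embryos were 14.85, 14.72, 14.83 and 14.64 for replicate 1, its dye swap, replicate 2 and replicate 3. In wild-type embryos they were 14.48, 14.37, 14.47 and 14.31 on the same arrays. The ratios were 0.38, 0.35, 0.36 and 0.33, with a mean of 0.35 ± 0.018 (adjusted p = 0.00053), and both of its probes passed, at 0.34 and 0.36. *Rpt4* was thus the one gene of the 18 ordinary regulatory subunits that rose, in a ring whose other 5 subunits fell. *Rpt2* fell by 0.27 ± 0.063 (adjusted p = 0.0027) and *Rpt5* by 0.29 ± 0.028 (0.0014). *Rpt3* fell by 0.45 ± 0.23 (0.0035), with -0.35, -0.60 and -0.57 on the 3 arrays of one orientation and -0.031 on the dye swap.

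**Figure D2:**
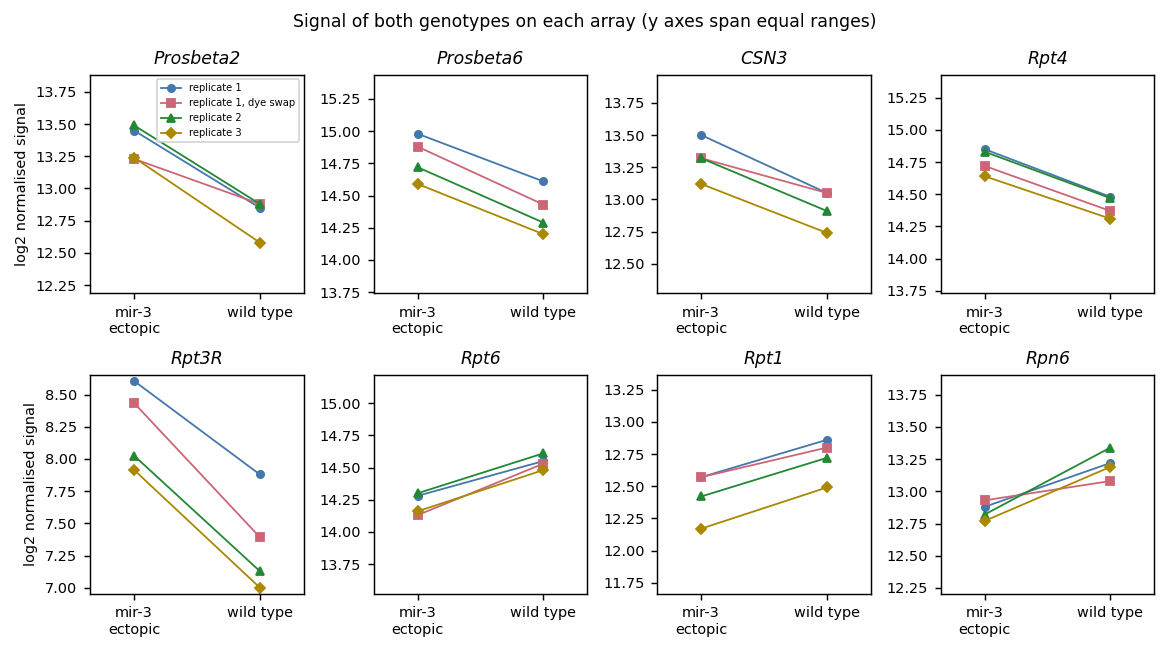
Log2 normalised signal (y axis) of 8 genes in mir-3 ectopic embryos (left) and wild-type embryos (right), with a line for each of the 4 arrays. The y axes span equal ranges, and levels of different genes are not comparable. *Prosbeta2*, *Prosbeta6*, *CSN3*, *Rpt4* and *Rpt3R* are higher in mir-3 ectopic embryos on each array, and *Rpt6*, *Rpt1* and *Rpn6* are lower.

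Among the other base subunits the scaffold genes *Rpn1* and *Rpn2* had log2 ratios of -0.060 ± 0.056 and -0.029 ± 0.15 and did not pass (adjusted p = 0.30 and 0.72). The ubiquitin receptor gene *Rpn10* had -0.15 ± 0.11 and did not pass (adjusted p = 0.052). *Rpn13*, the other ubiquitin receptor and the docking site of a deubiquitinase, fell by 0.17 ± 0.040 (adjusted p = 0.014). The median of these 4 genes was -0.060 on the replicate 1 array, -0.075 in replicate 2 and -0.041 in replicate 3, and -0.35 on the dye swap. With 1 array of that orientation, the dye and that array cannot be told apart.

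In the lid 6 of 8 genes fell and 0 rose (0 also at an unadjusted p under 0.05), with a median of -0.19. *Rpn6*, a scaffold of the lid, fell by 0.39 ± 0.14 (adjusted p = 0.0016). *Rpn11*, the deubiquitinase that strips ubiquitin from substrates, fell by 0.29 ± 0.048 (0.0015), and *Rpn8*, its partner, by 0.16 ± 0.076 (0.025). *Rpn3* fell by 0.24 ± 0.13 (0.012), *Rpn12* by 0.23 ± 0.015 (0.0037) and *Rpn7* by 0.14 ± 0.024 (0.031). *Rpn5* had -0.15 ± 0.13 (adjusted p = 0.072) and *Rpn9* -0.10 ± 0.19 (0.27), and neither passed. Base and lid medians differed by 0.042, -0.0026 and -0.013 in the 3 replicates (base minus lid), which is within the spread between them.

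Of the 5 regulatory duplicates 2 rose and 3 did not pass. *Rpt3R* (CG9475), a duplicate of *Rpt3* known from the testis, showed the largest ratio of all measured members. It had log2 signals in mir-3 ectopic embryos of 8.61, 8.44, 8.03 and 7.92 for replicate 1, its dye swap, replicate 2 and replicate 3. In wild-type embryos they were 7.88, 7.39, 7.13 and 7.001 on the same arrays. Ratios of 0.73, 1.04, 0.90 and 0.91 gave a mean of 0.90 ± 0.015 (SD, n = 3), a 1.86-fold difference (adjusted p = 7.4e-06). That SD leaves out the gap between the 2 arrays of replicate 1, at 0.73 and 1.04. *Rpn13R* rose by 0.21 ± 0.069 (adjusted p = 0.0085). *Rpn12R*, *Rpt4R* and *Rpt6R* had log2 ratios of 0.032, -0.10 and -0.0037 (adjusted p = 0.55, 0.23 and 0.95). *Rpn12R* was well above background on 3 arrays in mir-3 ectopic embryos and 1 in wild-type embryos, and *Rpt4R* on 0 and 3. Of 23 testis and spermatogenesis markers 8 were measured, of which 25% were higher and 0 lower, against 24.3% and 24.4% of all genes tested. Among the 8, *twe*, a meiotic Cdc25 phosphatase that is also supplied maternally, rose by 0.71 ± 0.043 (adjusted p = 2.8e-05), *tomb*, of the meiotic arrest group, rose by 0.24 ± 0.079 (0.0058), and 6 did not pass. *tomb* was dim, with a mean log2 signal of 6.50, against 6.19 for the dimmest gene tested. So were *can*, *nht* and *fzo* (6.41, 6.42 and 6.39), for which not passing says little. The part of testis-type transcripts in the *Rpt3R* difference was not tested.

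In the signalosome, *CSN3* (CG18332) had log2 signals in mir-3 ectopic embryos of 13.50, 13.32, 13.32 and 13.12 for replicate 1, its dye swap, replicate 2 and replicate 3, against 13.05, 13.05, 12.91 and 12.74 in wild-type embryos. On each array the mir-3 ectopic value exceeded the wild-type value. The ratios were 0.45, 0.27, 0.40 and 0.38, with a mean of 0.38 ± 0.022 (SD, n = 3, adjusted p = 0.00037). *CSN4* (CG8725) had 0.54, 0.086, 0.59 and 0.59 on the same arrays and a mean of 0.50 ± 0.16 (adjusted p = 0.00082), with its dye-swap value well below the others. *CSN1b* (CG3889) had 0.36, 0.18, 0.37 and 0.32 and a mean of 0.32 ± 0.054 (adjusted p = 0.0011). Like *CSN3* and *CSN4* it encodes a scaffold subunit.

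*CSN5* (CG14884), the metalloprotease that removes NEDD8, had log2 ratios of 0.31 in replicate 1, 0.19 with its dyes swapped, 0.19 in replicate 2 and 0.21 in replicate 3, and a mean of 0.22 ± 0.028 (adjusted p = 0.0046). Its partner *CSN6* rose by 0.21 ± 0.071 (adjusted p = 0.0088) and *CSN7* by 0.25 ± 0.11 (0.0071). *CSN8*, a small subunit, had 0.086 ± 0.022 and did not pass (adjusted p = 0.13). *CSN2* is named *alien* in flies, so its symbol kept it out of the set, and it was chosen to be named after its value was seen. It rose by 0.37 ± 0.047 (adjusted p = 0.00056) and was positive on all 4 arrays.

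The core particle was set against the regulatory particle by the difference of their medians in each replicate, without a p for a score over the genes. Core minus regulatory was 0.42, 0.43 and 0.49 in replicates 1, 2 and 3 (mean 0.45 ± 0.037, SD, n = 3), and 0.40 on the dye-swap array alone. Over the ordinary subunits only, 14 core and 18 regulatory genes, it was 0.50, 0.51 and 0.54. Of the 14 ordinary core genes 12 had a ratio above every ordinary regulatory gene but *Rpt4*, the next highest being *Rpn2*, and 6 lay above *Rpt4* too. With no filter on dim probes, which adds the duplicates that were not measured, the difference of the medians was 0.26.

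Regulatory minus signalosome was -0.46, -0.53 and -0.41 in the 3 replicates, larger on each than the spread between them. All 7 measured signalosome genes had a ratio above every ordinary regulatory gene but *Rpt4*, and 2 lay above *Rpt4*. Core minus signalosome was -0.039, -0.099 and 0.082, which spans 0, so no difference between these 2 medians was shown at this spread.

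**Figure D3:**
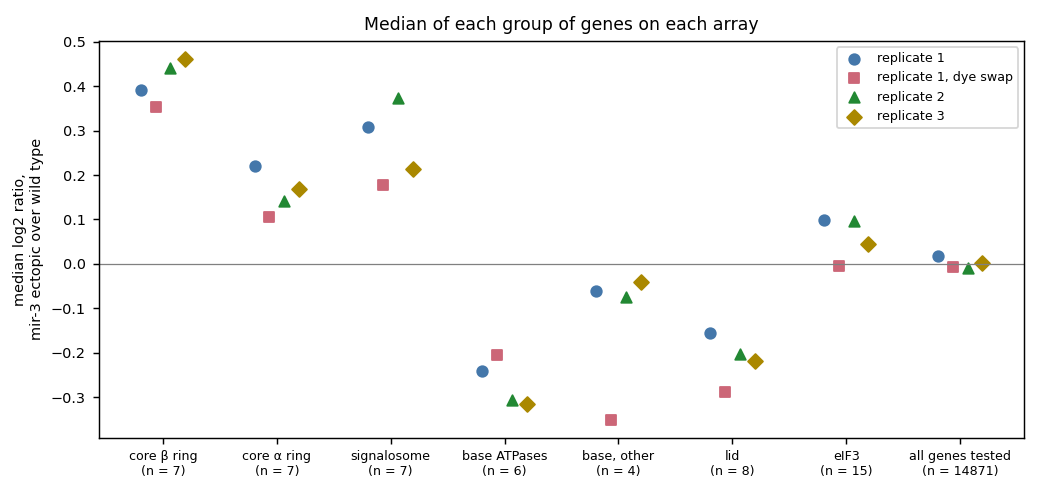
Median log2 ratio of mir-3 ectopic over wild type (y axis) in each group of genes (x axis), with a point for each of the 4 arrays. The β ring, α ring and signalosome lie above 0 on every array and the base and lid groups below it, while eIF3 and all genes tested lie near 0.

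The ratios of the 46 genes had an interquartile range of 0.48, against 0.28 over all genes tested, while the median SD between replicates was 0.060 for them and 0.075 for all genes tested. These sets were not matched for signal: the median log2 signal was 12.96 for the 46 genes and 9.20 for all genes tested. Of the 22 members with 2 or more kept probes, 21 had all probes of one sign, with a median gap of 0.061 between the lowest and the highest probe. The exception, *Rpt6R*, lay at about 0 on both.

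**Figure D4:**
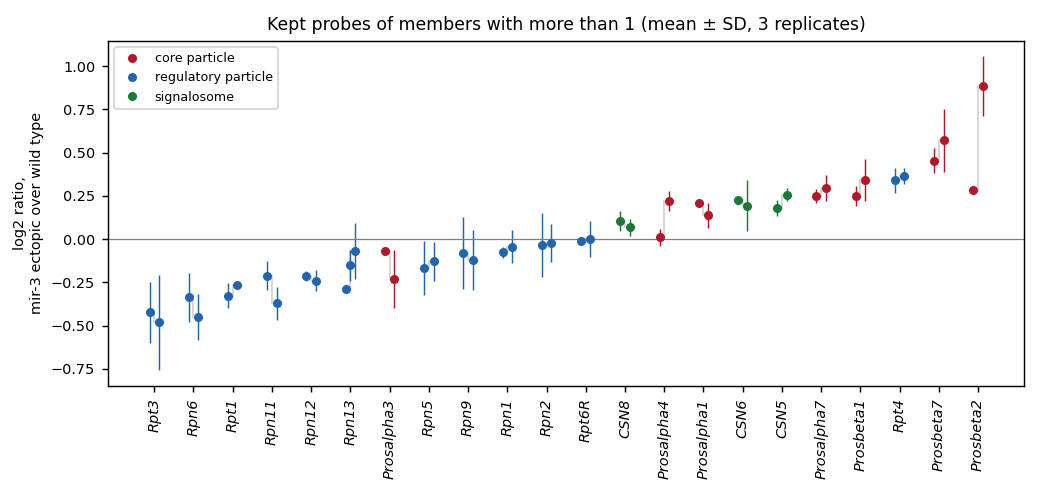
Log2 ratio of mir-3 ectopic over wild type (y axis) of each kept probe of the 22 genes with more than 1 (x axis, ordered by mean), as mean ± SD of 3 replicates and coloured by assembly. The median gap between the lowest and the highest probe of a gene is 0.061, and the largest gap, 0.60, is that of *Prosbeta2*.

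Genes that act beside the proteasome were taken from lists. For comparison, 24.3% of all genes tested were higher and 24.4% lower. Of 13 assembly and associated factors 3 (23.1%) rose and 6 (46.2%) fell, with a median of -0.094. *ntc*, an F-box protein of sperm maturation that binds the proteasome regulator PI31, rose by 0.78 ± 0.093 (adjusted p = 3.6e-05). The 2 proteasome-bound deubiquitinases went apart: *Uch-L5*, which docks on Rpn13, rose by 0.37 ± 0.038 (0.00049), and *Usp14*, which docks on Rpn1, fell by 0.34 ± 0.037 (0.00073). Of the other genes of that list, 3 chosen after their values were seen are *Sem1*, the small lid subunit Rpn15, which fell by 0.31 ± 0.12 (0.0035), *TER94*, the segregase p97, which fell by 0.32 ± 0.075 (0.0014), and *Pomp*, the chaperone of core particle assembly, which rose by 0.13 ± 0.050 (0.039).

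Among 14 genes of ubiquitin and its conjugation 4 rose and 4 fell (28.6% each), near the shares over all genes tested, with a median of 0.085. The polyubiquitin gene *Ubi-p5E* fell by 0.51 ± 0.088 (adjusted p = 2e-04). *Ubc2*, a ubiquitin-conjugating enzyme, rose by 0.34 ± 0.076 (0.0012), and *lwr*, whose product conjugates SUMO rather than ubiquitin, by 0.28 ± 0.047 (0.0018). Of 18 genes of cullin ligases and NEDD8, the substrates of the signalosome and their activation, 17 were measured. Of these 6 (35.3%) rose and 3 (17.6%) fell, with a median of 0.078. *APP-BP1*, a subunit of the NEDD8-activating enzyme, fell by 0.57 ± 0.11 (0.00019). *ago*, an F-box substrate receptor, rose by 0.39 ± 0.090 (0.00072), and *SkpB*, a Skp1-like adaptor, by 0.29 ± 0.023 (0.0013).

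The translation factor eIF3 has the same kind of scaffold domains as the lid and the signalosome. Of its 16 genes 15 were measured, of which 5 (33.3%) rose, 2 (13.3%) fell and 8 did not pass, and the median was 0.059. *eIF3l* rose by 0.85 ± 0.21 (adjusted p = 0.00017), with 0.92 to 0.99 on the 3 arrays of one orientation and 0.285 on the dye swap. *eIF3a* rose by 0.32 ± 0.053 (0.0010), and *eIF3j*, a loosely bound subunit, fell by 0.53 ± 0.051 (0.00011). Proteasome genes of animals are regulated by Nrf transcription factors. The fly factor *cnc* had a log2 ratio of -0.091 ± 0.061 and its repressor *Keap1* 0.10, and neither passed (adjusted p = 0.13 and 0.15). With a dye term *Keap1* was higher, at 0.16 (adjusted p = 0.021). *maf-S*, the partner of cnc, fell by 0.24 ± 0.15 (adjusted p = 0.017), but its ratio was 0.15 on the dye swap and it missed the threshold in the fit with a dye term (adjusted p = 0.11).

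Markers of the female germline and of maternal supply moved with genotype too. Of 19, all measured, 11 (57.9%) fell and 6 (31.6%) rose, with a median of -0.67. *dhd*, a thioredoxin of the egg, fell by 3.26 ± 0.059 (adjusted p = 6.6e-08), and *alphaTub67C*, a maternal tubulin, fell by 2.56 ± 0.15 (4.3e-07). *zpg*, a germline gap junction gene, rose by 1.68 (7.8e-07). The part of maternal RNA in the proteasome and signalosome values was not tested.

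The medians kept their signs under each way of processing that was tried, as the plot of medians by processing shows. For this the authors' table was first turned to mir-3 ectopic over wild type. The calls of single genes were not kept under each. With median centring in place of loess, limma called 0 members (1 higher and 0 lower at an unadjusted p under 0.05), with medians of 0.27 for the core particle, -0.16 for the regulatory particle and 0.24 for the signalosome. With the processed signals of the scanner software, 8 members were called higher and 4 lower. The reason was not tested.

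**Figure D5:**
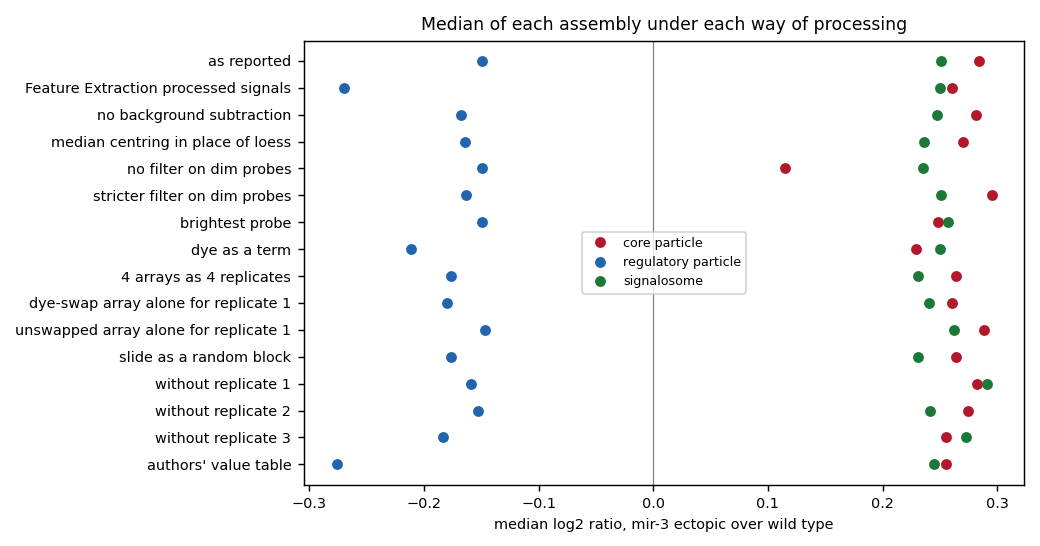
Median log2 ratio of mir-3 ectopic over wild type (x axis) over the measured genes of the core particle, the regulatory particle and the signalosome under each way of processing (y axis). Core and signalosome medians lie above 0 and regulatory medians below 0 in every line, and the core median drops to 0.12 with no filter on dim probes. The authors' table was turned to mir-3 ectopic over wild type before plotting.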

How the data were processed

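Per the file headers, Agilent Feature Extraction 10.1.1.1 read the spots of the 4 two-colour arrays. The deposited scanner files hold spot intensity (median foreground and local background), processed signals and log10 ratios, the last of which served no result. The authors' deposited value table holds log2 ratios, which match ratios of the processed signals with the sign of wild type over mir-3 ectopic by the labelled dyes, and served as an alternative.

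Background was corrected with normexp (offset 50) and ratios normalized by loess with control spots at weight 0, in limma 3.58.1 under R 4.3.3. Control spots and flagged spots (107 to 173 per array) were left out. Of 32162 probes 19748 were well above background in at least 1 genotype on at least 3 of 4 arrays and were kept, 69 of them among the 80 probes of the members. Probes were named through the CG number in a RefSeq gene table, 18121 of them through a current locus tag, 1155 through an older one, 146 through a synonym and 115 through an accession, while 12625 kept the name in the file. Kept probes of a gene were averaged, and so were the 2 arrays of replicate 1. The 3 replicates were tested against 0 with limma (lmFit, eBayes), p-values were adjusted by Benjamini-Hochberg over 14871 genes with a threshold of 0.05, and the test was tried on simulated data. In the fit with dye as a term and in the slide block (statmod 1.5.0) all 4 arrays entered. The files name an older genome build than the gene table, so no coordinates are given.

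Members and lists were chosen with earlier results of these data known. Every member that passed is named. Values by array are given for the 4 of smallest adjusted p in each assembly, for any with an absolute log2 ratio of at least 0.5 and for any whose probes were called in opposite directions (0 of them), and in each other list the 3 called genes of smallest adjusted p are named.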

Additional observations from a re-analysis of the deposited data

Results flagged for a closer look

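In 4 of the 46 measured genes 1 array lay far from the other 3 arrays by Dixon's test at its 95% critical value for 4 values. If the 4 values were independent, chance alone would pass it in about 1 of 20 genes for any of the 4 arrays, and in fewer for 1 given array. They are not independent here, since both arrays of replicate 1 share their RNA and 3 of the 4 arrays share a dye orientation. That rate is therefore no firm measure for these genes. Dixon's test was run on the 46 measured genes only. Whether the other genes on the array pass it as often, or on the same array, was not tested. In all 4 genes that passed it the outlying array was the dye swap. *Prosbeta3* had a log2 ratio of mir-3 ectopic over wild type of 0.996 there, against 0.24 to 0.287 on the other arrays. *Prosbeta4* had 0.0561, against 0.535 to 0.554. *CSN4* had 0.0863, against 0.538 to 0.59. *Prosalpha7* had 0.106, against 0.289 to 0.321. All 4 genes were still positive there. Each was also called higher in the fit with the dye as a term, at 0.63 for *Prosbeta3*, 0.30 for *Prosbeta4*, 0.33 for *CSN4* and 0.21 for *Prosalpha7*. In that fit the spread comes from the other 3 arrays alone. The gap of the dye swap does not enter it, so those calls are no check on the outlying values.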

How the results depend on the processing

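Of the 36 called genes, 0 changed sign under any alternative, though the authors' table was turned to mir-3 ectopic over wild type beforehand. Its signs are therefore no separate check, and it matches the processed signals. All called genes kept their call (35 of 35 measured under a stricter filter) with no background subtraction, no filter on dim probes, the brightest probe and the dye as a term. The same held with 4 arrays as 4 replicates, a slide block and the unswapped array alone for replicate 1. The first 2 of these enter both arrays of replicate 1, which share their RNA. With the unswapped array alone every array has the same dye orientation, so dye and genotype cannot be told apart. Calls were lost for 36 with median centring, 26 with Feature Extraction's processed signals, 25 with the authors' table, 10 with the dye swap alone for replicate 1, and 1 without replicate 1 (*Rpn8*), 8 without replicate 2 (*Prosalpha1*, *Prosalpha1R*, *Prosalpha3*, *Prosalpha5*, *Rpn7*, *Rpn8*, *Rpn13R*, *CSN7*) and 6 without replicate 3 (*Prosalpha1*, *Prosalpha1R*, *Prosalpha3*, *Rpn3*, *Rpn7*, *Rpn13*). The cause was not tested. Genes higher and lower over the array numbered 24 and 58 with median centring, 2196 and 1890 with processed signals, 2146 and 1927 with the authors' table and 2225 and 2090 with the dye swap alone. Members higher and lower were 0 and 0, 8 and 4, and 8 and 5 under the first 3, and 9 members were lower with the dye swap alone.

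Core minus regulatory, 0.433, stayed positive throughout: 0.53 with processed signals and with the authors' table, 0.519 with ordinary subunits only and 0.264 with no filter, which adds the unmeasured duplicates. Core minus signalosome, 0.033, changed sign to -0.12 with no filter, -0.00885 with the brightest probe and -0.0211 with the dye term. The core median was 0.115 with no filter, 0.248 with the brightest probe, 0.229 with the dye term and 0.32 with ordinary subunits only. The regulatory median was -0.27 with processed signals, -0.276 with the authors' table, -0.211 with the dye term, -0.176 with 4 arrays as replicates or a slide block, -0.18 with the dye swap alone and -0.198 with ordinary subunits only.

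Leaving out 1 replicate gave 2521 to 4008 genes higher, 2221 to 4246 lower, 16 to 22 members higher, 11 to 16 lower, medians of 0.255 to 0.282 (core), -0.183 to -0.153 (regulatory) and 0.241 to 0.291 (signalosome), core minus regulatory of 0.427 to 0.441, and core minus signalosome of -0.0189 to 0.0331, negative without replicate 1 (-0.00933) or 3. Genes lower fell to 2402 without replicate 2 and 2221 without replicate 3. Each tested ratio already pairs a mir-3 ectopic with a wild-type sample on 1 array, so no further replicate block was added. Signals near background limit the dim duplicates.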

Other observations

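The measured genes lay on 5 chromosome arms. On 2R 6 of 7 core genes rose and 4 of 4 regulatory genes fell, on 2L 2 of 2 rose and 2 of 2 fell, and on 3L 2 of 2 core genes rose while 1 of 5 regulatory genes fell. On 3R 2 of 4 core genes rose and 2 fell, and of 8 regulatory genes 1 rose and 3 fell. On the X, *Rpt4* and *Rpn13R* rose, *Rpt3* and *Rpt6* fell, and the core gene *Prosalpha4* did not pass. No test was made of these counts, and over all genes tested 24.3% were higher and 24.4% lower.

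Most of the ordinary subunits were bright. Over the 1492 genes with a mean log2 signal of 12.32 to 13.94, the middle range of the ordinary subunits, 34% were called higher and 28.1% lower, with a median log2 ratio of 0.013. The core and regulatory medians of 0.28 and -0.15 lay on either side of it.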
